A study of Mus musculus with 6 samples.

Results

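Collagen chain genes encode the alpha chains that wind in threes into the collagen triple helix. They were taken as the protein-coding rows of the deposited gene table whose symbol is Col, a number, the letter a and a number, such as Col1a1. This rule found 40 genes of 20015 rows. GENCODE M21, a mouse gene annotation on the mm10 build, names 44 protein-coding genes by the same rule, and Col9a1, Col9a2, Col9a3 and Col28a1 were not analysed here. Col4a3bp was left out because its symbol goes on after the pattern, and it encodes a lipid transfer protein. By type, the members were 11 fibrillar, 6 basement membrane, 6 microfibrillar, 6 fibril-associated, 4 transmembrane, 2 multiplexin and 4 network and anchoring chains, with Col26a1 as the 1 member outside these types.

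The study sequenced quadriceps muscle RNA, which the labels call total RNA and the name of the deposited table calls myonuclear, and compared limbs with and without a tear of the anterior cruciate ligament (ACL), a stabilising ligament of the knee. Each group, ACL injured quadriceps and ACL non-injured quadriceps, had 3 libraries, which the titles letter A, B and C. Their labelled organism is Mus musculus, whereas the series text and the extraction protocol name human tissue. All 40 members carry mouse symbols and identifiers and the start of the GENCODE gene of that name, with an end 1 base beyond it, so the values were read as mouse and positions are on mm10. The labels give no strain, age or interval since injury, no agent or allele, and nothing on whether a group's libraries are from separate individuals. The p-values therefore reflect only how these libraries vary, and that variation may be technical.

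Fibrillar collagens form the rope-like fibres of tendon and of the connective tissue sheaths around muscle, muscle bundles and single fibres, with types I and III as the main fibrils and type V within them. Type IV forms the sheet-like network of the basement membrane that wraps each muscle fibre and capillary, and type VI forms beaded microfibrils next to it. Fibril-associated collagens sit on fibril surfaces, and transmembrane collagens are anchored in the cell membrane. In muscle most collagen mRNA is made by fibroblasts and fibro-adipogenic progenitors, and a rise of the fibrillar chains is a familiar feature of muscle repair and fibrosis.

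Library totals ran from 6.45 to 7.50 M estimated counts in the injured group and from 7.23 to 8.75 M in the non-injured group. Levels are given in CPM, the read count of a gene per M reads counted in the library, scaled by the trimmed mean of M-values (TMM). Muscle fibre markers, such as Ttn, Acta1 and Ckm, summed to 166410 to 173020 CPM in the injured and 179560 to 188440 CPM in the non-injured libraries, so the muscle label was met by the data. Ttn alone held most of that sum (134030 against 143550 CPM on average). Of the 8 fibre markers, 0 passed the test described below, and 3 had a positive and 5 a negative log2 fold change. Collagen chains made up 0.137%, 0.110% and 0.137% of all counts in injured A, B and C, against 0.0577%, 0.0706% and 0.0644% in non-injured A, B and C. No isolation of nuclei is described in the labels, so the RNA was read as that of bulk tissue. That reading is an assumption, as the word myonuclear given above is left unexplained, and the source of the RNA within the tissue was not tested. Had nuclei of muscle fibres been the source, collagen and marker levels below could not be read as those of the whole tissue. In bulk tissue, more cells of a type and more RNA per cell cannot be told apart, and on the bulk reading that holds for every level below.

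The 40 chains together stood higher in the injured quadriceps, with 4 of the 5 individual calls among the fibrillar chains. Summed over all members, the level was 1354.6, 1085.1 and 1462.8 CPM in injured A, B and C and 581.5, 709.3 and 623.6 CPM in non-injured A, B and C. That is 1301 ± 195 against 638 ± 65.2 CPM (SD, n = 3 each), a ratio of 2.04, and the groups did not overlap. Of the 37 members with enough counts to test, Col1a1, Col1a2, Col3a1, Col5a2 and Col12a1 rose at an adjusted p under 0.05 (edgeR quasi-likelihood F test, Benjamini-Hochberg adjustment over 16095 genes), and none fell. Among all genes tested 0.715% rose and 0.0311% fell by that rule. At an unadjusted p under 0.05, 15 members were higher and 0 lower, where the shares over all genes were 9.25% and 6.11%. DESeq2 and limma-voom also called 0 members lower.

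The same letter in both groups may mark a pair, and same-lettered libraries deviated together, so a fit with the letter as a block was also made. With the letter block 14 members rose and 1, Col22a1, fell, where 3.21% of all genes rose and 2.65% fell. The 9 chains that rose in the fit with the block and not in the fit without it were Col5a1, Col5a3, Col27a1, Col6a1, Col6a2, Col6a3, Col4a1, Col14a1 and Col8a1. Every injured library stood above every non-injured one for 16 of the 37 (11.9% of all genes) and below for 1 (9.57%). A positive log2 fold change was seen in 34 of 37 members and in 50.2% of all genes. The median log2 fold change was 0.63 over the members and 0.00 over all genes. Among the 20 members with a mean of at least 50 counts, 5 rose (0.74% of genes at that depth), 18 had a positive log2 fold change (39.5%) and 13 had non-overlapping groups with the injured libraries above (7.1%) and 1 below (13.1%). Of the 17 tested members under 50 counts, 0 rose without the block, 1 rose with it, and the share of genes at that depth that rose was 0.682%. Every injured library stood above for 3 of these 17. That separation is more frequent among genes under 50 counts than the 11.9% of all genes, since deeper genes had 7.1%. These 3 thus do not stand out.

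**Figure D1:**
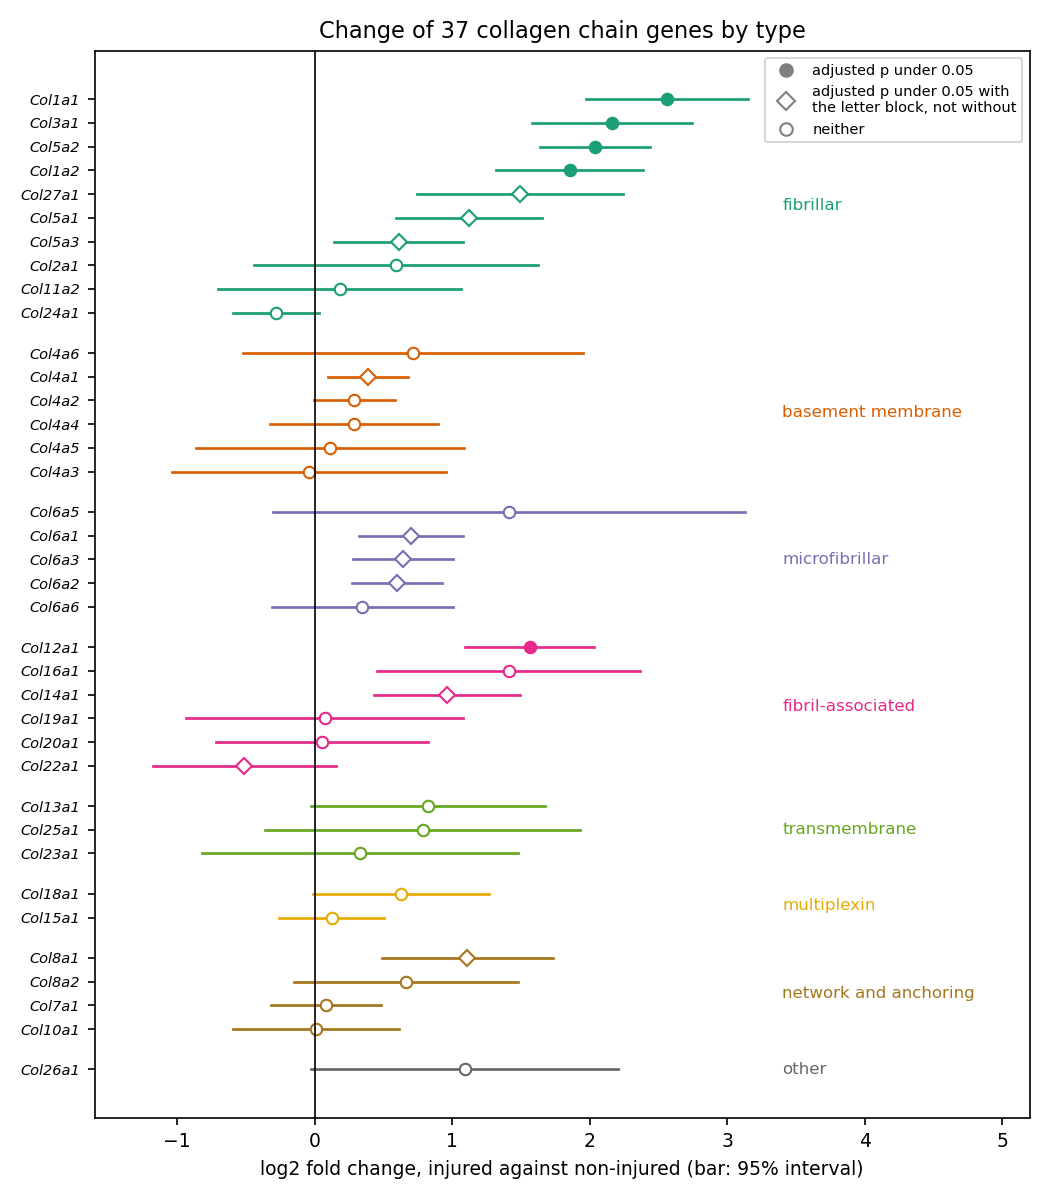
Log2 fold change of injured against non-injured quadriceps (x axis) for the 37 tested collagen chain genes, grouped by type, with bars for the 95% interval; filled circles passed an adjusted p of 0.05, open diamonds passed it in the fit with the letter block and not in the fit without it, and open circles passed neither. Of the filled circles 4 are fibrillar and 1 is fibril-associated, and Col22a1 is the diamond on the left of the zero line.

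Among the fibrillar chains, 4 of 10 tested rose (0.715% of all genes), with a median log2 fold change of 1.31. All injured libraries stood above all non-injured ones for 7 (11.9% of all genes). Col1a1 encodes the chain present in duplicate in the type I trimer. Its level was 229.7, 143 and 251 CPM in injured A, B and C and 22.3, 49.4 and 33.7 CPM in non-injured A, B and C. The groups were far apart, and the narrowest gap lay between injured B and non-injured B. The difference was 5.90-fold (95% interval 3.92 to 8.88), a log2 fold change of 2.56 ± 0.27 (SE) with an adjusted p of 0.00101. The gene lies at chr11:94936224-94953042 on mm10 (ENSMUSG00000001506.10).

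Col1a2, which encodes the partner chain of Col1a1 (chr6:4504814-4541544), stood at 134, 82.1 and 141 CPM in the injured libraries, in the same order, and at 26.0, 46.0 and 26.4 CPM in the non-injured ones. The groups again did not overlap, and letter B gave the highest non-injured and the lowest injured value. The rise was 3.62-fold (2.50 to 5.25), a log2 fold change of 1.86 ± 0.25 with an adjusted p of 0.00434. Without non-injured C the adjusted p of Col1a2 was 0.0516.

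Col3a1 encodes the only chain of type III collagen, the fine fibrils of pliable connective tissue and of early repair. Injured A, B and C had 250.2, 178 and 334 CPM, and non-injured A, B and C had 34.6, 66.9 and 68.9 CPM. The lowest injured library was thus well above the highest non-injured one. The rise was 4.47-fold (2.99 to 6.69), a log2 fold change of 2.16 ± 0.27 with an adjusted p of 0.00287.

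Col5a2, a chain of the type V collagen that helps to start fibrils and limits their width, had the smallest p of all members. Its levels were 54.2, 36.8 and 47.6 CPM in the injured and 11.1, 12.7 and 9.77 CPM in the non-injured libraries. The 3 non-injured values lay close together, and the groups did not overlap. The rise was 4.11-fold (3.12 to 5.42), a log2 fold change of 2.04 ± 0.18 with an adjusted p of 0.000233. Col3a1 and Col5a2 are neighbours on mm10, at chr1:45311538-45349706 on the plus strand and chr1:45374321-45503282 on the minus strand. They lie tail to tail with 24.6 kb and 0 protein-coding genes between them.

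The other chains of type V were less far apart between the groups. Col5a1 (chr2:27886425-28039514) stood at 63.8, 46.5 and 70.6 CPM in the injured and 16.2, 34.2 and 32.7 CPM in the non-injured libraries, without overlap. The difference was 2.18-fold (1.50 to 3.15), with an adjusted p of 0.0590, and 0.00356 with the letter block, and over the 14 alternatives it ran from 0.00356 to 0.180. DESeq2 (0.00627), upper quartile scaling (0.0448) and leaving out both letter A libraries (0.0399) also called it. Col5a3 stood at 26.2, 31.6 and 35.2 CPM against 13.6, 26.3 and 20.9 CPM, so that injured A and non-injured B overlapped by a small margin. It was 1.53-fold higher (1.10 to 2.11) with an adjusted p of 0.205, and 0.0242 with the block (0.0242 to 0.411 over the alternatives).

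Of the remaining fibrillar chains, Col27a1, a chain best known from cartilage, had 7.04, 9.32 and 5.41 CPM in the injured and 2.68, 1.72 and 3.35 CPM in the non-injured libraries. It was 2.81-fold higher (1.68 to 4.73), with an adjusted p of 0.0681, and 0.0208 with the block. Col24a1, a minor fibrillar chain known from bone, stood at 28.8, 26.3 and 26.5 CPM against 36.0, 32.5 and 30.7 CPM. It was the only tested member with all injured libraries below all non-injured ones, at 0.823-fold (log2 fold change -0.28 ± 0.14, adjusted p = 0.379). The cartilage chains were near the limit of detection: Col2a1 was at 0.94 to 2.45 CPM and Col11a2 at 1.95 to 4.59 CPM over the 6 libraries, neither passed the test, and Col11a1 did not have enough counts to be tested.

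**Figure D2:**
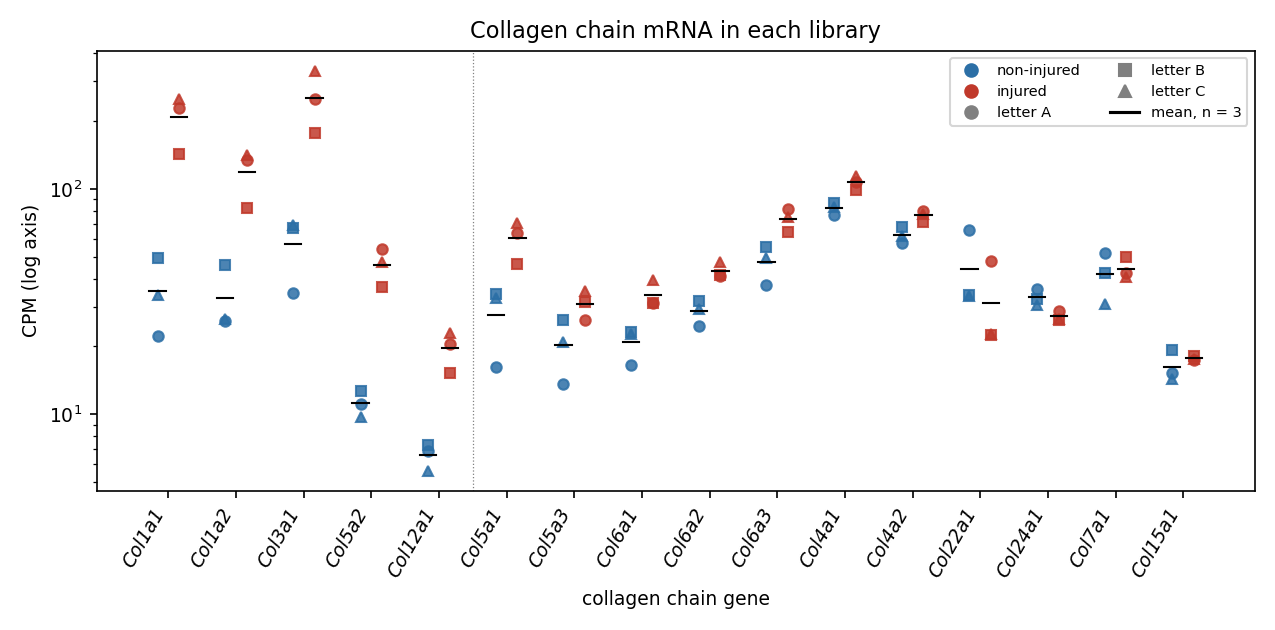
CPM on a log axis (y) for 16 collagen chain genes (x) in each library, with blue for non-injured, red for injured, a marker shape for each letter and a line for the mean of 3; values are not divided by gene length, so they compare groups within a gene only. Left of the dotted line are the 5 chains that rose, for which injured B is the lowest injured library each time.

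Injured B was the lowest injured library for all 5 chains that rose. It was the highest of all 6 libraries for 12 of the 20 members with a mean under 50 counts, as it was for 40.2% of all rows at that depth, and for 2 of the 20 deeper members. When each of the 6 libraries was left out in turn, the log2 fold change ran from 2.30 to 2.87 for Col1a1, from 1.88 to 2.36 for Col3a1 and from 1.90 to 2.18 for Col5a2, and these 3 passed the threshold in all 6 fits.

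To show the DNA just upstream of chains that differed in response, 3 windows are given, each holding the 250 bases before the RefSeq transcription start on GRCm38.p6, the assembly behind mm10, written 5′ to 3′ on the gene's own strand. Col3a1 rose in the fits with and without the block, and Col5a1 and Col6a3 in the fit with it. Capitals mark a TATA box (TATAAA) or a GC box (GGGCGG), each searched on both strands, so that a match on the other strand reads TTTATA or CCGCCC.
Col3a1, chr1:45311288-45311537, plus strand: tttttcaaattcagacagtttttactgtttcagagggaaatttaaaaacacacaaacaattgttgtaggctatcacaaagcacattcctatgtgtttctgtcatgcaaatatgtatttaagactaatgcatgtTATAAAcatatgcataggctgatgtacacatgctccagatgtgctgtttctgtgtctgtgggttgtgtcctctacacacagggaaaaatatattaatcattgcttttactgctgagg
Col5a1, chr2:27886175-27886424, plus strand: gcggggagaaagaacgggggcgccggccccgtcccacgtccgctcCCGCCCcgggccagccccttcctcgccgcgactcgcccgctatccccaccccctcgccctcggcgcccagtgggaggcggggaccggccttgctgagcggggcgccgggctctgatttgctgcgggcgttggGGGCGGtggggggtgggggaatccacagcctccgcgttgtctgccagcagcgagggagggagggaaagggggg
Col6a3, chr1:90843972-90844221, minus strand: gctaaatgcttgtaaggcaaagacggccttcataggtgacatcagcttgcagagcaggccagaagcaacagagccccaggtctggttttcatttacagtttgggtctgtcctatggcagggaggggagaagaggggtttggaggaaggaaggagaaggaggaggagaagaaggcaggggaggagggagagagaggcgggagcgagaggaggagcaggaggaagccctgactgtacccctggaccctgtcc

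In these windows the TATA box of Col3a1 begins 117 bases before the start, the GC boxes of Col5a1 begin 205 and 73 bases before it, and Col6a3 holds neither motif. Over the 34 member windows in the RefSeq table, from 32 genes, the TATA box occurred in 5 (14.7%, against 12.4% of 32851 mouse promoter windows of that length). The GC box occurred in 21 (61.8%, against 32.7%). A CCAAT box (CCAAT or ATTGG) occurred in 12 (35.3%, against 33.9%). Of the other chains that rose without the block, Col1a2 had GC boxes 205 and 188 bases and a CCAAT box 109 bases before the start. It had no TATA box. Col1a1, Col5a2 and Col12a1 had no window in the RefSeq table. All of these are matches of letters, without measured binding, and a link between motif and response was not tested.

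Of the microfibrillar chains, 0 of 5 tested rose in the fit without the block, and Col6a1, Col6a2 and Col6a3 rose with it. These 3 chains assemble into the type VI collagen of the muscle fibre surroundings, whose loss causes muscular dystrophy in humans. Col6a1 had 31.2, 31.2 and 39.3 CPM in injured A, B and C and 16.6, 23.3 and 22.6 CPM in non-injured A, B and C. Col6a2 had 40.9, 41.6 and 47.6 CPM against 24.6, 31.8 and 29.5 CPM. Col6a3 had 81.8, 64.5 and 75.3 CPM against 37.5, 55.2 and 49.1 CPM.

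In each of these the injured libraries all stood above the non-injured ones, by similar amounts. The folds were 1.63 (1.25 to 2.12) for Col6a1, 1.51 (1.20 to 1.90) for Col6a2 and 1.56 (1.21 to 2.01) for Col6a3. Adjusted p was 0.0833, 0.0856 and 0.0907 in that order, and 0.0101, 0.0136 and 0.0162 with the block. Over the alternatives the highest adjusted p values were 0.258, 0.293 and 0.293. The chains that can take the place of Col6a3 in type VI were scarcer. Col6a6 stood at 5.97 to 12.1 CPM in the injured and 5.36 to 9.64 CPM in the non-injured libraries (1.27-fold, adjusted p = 0.643), Col6a5 did not exceed 1.85 CPM, and Col6a4 did not have enough counts to be tested.

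Of the 6 basement membrane chains, 0 rose in the fit without the block, and the median log2 fold change was 0.29. Col4a1 and Col4a2 form the common type IV trimer. Col4a1 stood at 108, 99.2 and 115 CPM in the injured and 76.5, 86.8 and 83.0 CPM in the non-injured libraries. Col4a2 stood at 79.5, 71.7 and 77.6 CPM against 57.4, 68.0 and 61.8 CPM. Both had all injured libraries on top, with narrow gaps at letter B.

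Col4a1 was 1.31-fold higher (1.07 to 1.60; adjusted p = 0.197, and 0.0499 with the block, 0.0499 to 0.443 over the alternatives), and Col4a2 1.22-fold (0.996 to 1.50; adjusted p = 0.337). The chains of the specialised type IV networks, best known from kidney, were low. Col4a3, Col4a4, Col4a5 and Col4a6 had means of 0.98 to 6.84 CPM per group, and their log2 fold changes of -0.04, 0.29, 0.11 and 0.71 did not pass the test.

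Fibril-associated chains did not move as one. Col12a1, which sits on type I fibrils in tendon and muscle fascia, was the 1 of 6 that rose. Injured A, B and C had 20.5, 15.3 and 23.1 CPM, and non-injured A, B and C had 6.89, 7.35 and 5.62 CPM, with no overlap. The rise was 2.96-fold (2.13 to 4.09), a log2 fold change of 1.56 ± 0.22 with an adjusted p of 0.00526. Leaving out injured C gave an adjusted p of 0.0507, and leaving out non-injured C gave 0.0664.

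Col14a1, a close relative that also binds fibril surfaces, had 15.3, 9.32 and 11.1 CPM in the injured and 5.99, 6.77 and 5.49 CPM in the non-injured libraries, again without overlap. It was 1.95-fold higher (1.35 to 2.82), with an adjusted p of 0.0851, and 0.0252 with the block. Col16a1 also did not overlap, with 3.37, 3.52 and 4.70 CPM against 0.77, 2.07 and 1.47 CPM (adjusted p = 0.152, and 0.0649 with the block).

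Col22a1, a collagen of the junction between muscle fibre and tendon, went the other way. It stood at 48.1, 22.5 and 22.8 CPM in injured A, B and C and at 65.8, 33.8 and 33.3 CPM in non-injured A, B and C. Letter A was high in both groups, so the groups overlapped, yet within each letter the injured library was lower, by 0.45, 0.59 and 0.55 on the log2 scale. The fold was 0.702 (0.442 to 1.12), with an adjusted p of 0.465, and 0.0220 with the block (0.0220 to 0.866 over the alternatives). Its size depended on the letter A libraries: the log2 fold change of Col22a1 was -0.98 without injured A and -0.13 without non-injured A.

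Of the 4 transmembrane chains, 0 passed the test in either fit. Col13a1, which is concentrated at the neuromuscular junction, stood at 4.75, 5.96 and 2.56 CPM in the injured and 2.04, 2.87 and 2.54 CPM in the non-injured libraries. It was 1.77-fold higher (0.98 to 3.19) with an adjusted p of 0.345. Col23a1 had 1.84, 6.27 and 1.57 CPM against 1.91, 3.56 and 2.14 CPM, and its direction rested on injured B: the log2 fold change was 0.33 with it and -0.58 without it. Col25a1, known from motor innervation of muscle, did not exceed 3.06 CPM (adjusted p = 0.520), and Col17a1, a skin anchoring chain, did not have enough counts to be tested.

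The multiplexins Col15a1 and Col18a1 lie in the outer zone of basement membranes, and neither passed the test. Col15a1 stood at 17.5, 18.2 and 17.7 CPM in the injured and 15.2, 19.3 and 14.3 CPM in the non-injured libraries, a fold of 1.09 (adjusted p = 0.788). Col18a1, whose tail is released as endostatin, had 6.12, 13.4 and 10.5 CPM against 6.89, 7.58 and 4.95 CPM (1.55-fold, 0.99 to 2.41, adjusted p = 0.339).

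Among the network and anchoring chains, Col8a1, a short chain known from vessel walls, had 13.3, 8.86 and 10.1 CPM in the injured and 7.02, 3.79 and 4.15 CPM in the non-injured libraries, without overlap. It was 2.16-fold higher (1.40 to 3.32), with an adjusted p of 0.0890, and 0.0101 with the block (0.0101 to 0.312 over the alternatives), and it also passed without non-injured A (0.0446). Col7a1, the anchoring fibril chain of skin, stood at 42.3, 49.7 and 40.7 CPM against 52.2, 42.4 and 30.9 CPM, with wide overlap and a fold of 1.06 (0.801 to 1.39, adjusted p = 0.878). Its log2 fold change was -0.12 without non-injured C. Col8a2 and Col10a1 did not pass the test (log2 fold changes 0.66 and 0.01), and Col10a1 lies within Nt5dc1 on the opposite strand, so reads of Col10a1 and Nt5dc1 may not have been told apart. Col26a1 had 2.60, 5.81 and 2.14 CPM against 1.15, 2.64 and 1.07 CPM (2.13-fold, adjusted p = 0.340).

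To compare chains with each other, CPM was divided by the length in kilobases of the longest GENCODE principal transcript. On this scale Col3a1 (45.7 ± 14.1 CPM per kb), Col1a1 (35.0 ± 9.66) and Col1a2 (22.3 ± 6.03) led in the injured quadriceps, followed by Col4a1 (16.2 ± 1.17) and Col4a2 (11.8 ± 0.631; SD, n = 3). In the non-injured quadriceps Col4a1 (12.4 ± 0.784) led, followed by Col3a1 (10.2 ± 3.47), Col4a2 (9.67 ± 0.822) and Col6a2 (7.25 ± 0.927). Col1a2 (6.13 ± 2.14) and Col1a1 (5.93 ± 2.29) came after these. Of neighbours in these orders, injured Col3a1 and Col1a1, Col1a1 and Col1a2, and Col1a2 and Col4a1 had overlapping ranges of mean ± SD. So did non-injured Col4a1 and Col3a1, Col3a1 and Col4a2, Col6a2 and Col1a2, and Col1a2 and Col1a1. The place of Col3a1 in the non-injured order is thus not settled. Injured Col4a1 and Col4a2 did not overlap, nor did non-injured Col4a2 and Col6a2. Col5a2 went from rank 16 to rank 10 and Col12a1 from rank 26 to rank 20 of 40. These orders, and the shares below, hold for this choice of length. Over all annotated exons Col3a1 has 9816 bases instead of 5564, and Col1a1 6563 instead of 5930. The order of chains can therefore change with the length taken.

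The make-up of the collagen mRNA thus differed between the groups. Per transcript length, fibrillar chains made up 58.8% ± 5.94 of the collagen sum in the injured libraries and 35.4% ± 4.75 in the non-injured ones (SD, n = 3 each). Col1a1, Col1a2 and Col3a1 alone made up 48.8%, 39.6% and 52.7% in injured A, B and C and 16.5%, 25.3% and 22.9% in non-injured A, B and C. Basement membrane chains went from 23.3% ± 1.35 in the non-injured to 13.9% ± 1.48 in the injured libraries, and microfibrillar chains from 18.2% ± 1.36 to 13.5% ± 1.39.

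These smaller shares came with summed levels that were not lower. The summed fibrillar level was 799, 561 and 917 CPM in the injured libraries and 168, 275 and 231 CPM in the non-injured ones, and the means stood at a ratio of 3.38. The summed basement membrane level was 200.4, 187 and 205 CPM against 149, 167 and 155 CPM, a ratio of 1.26, and the microfibrillar ratio was 1.55. Fibril-associated, transmembrane, multiplexin and network and anchoring sums had ratios of 1.13, 1.51, 1.22 and 1.18, and the groups overlapped in each. The members other than the 5 that rose had a summed ratio of 1.32.

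**Figure D3:**
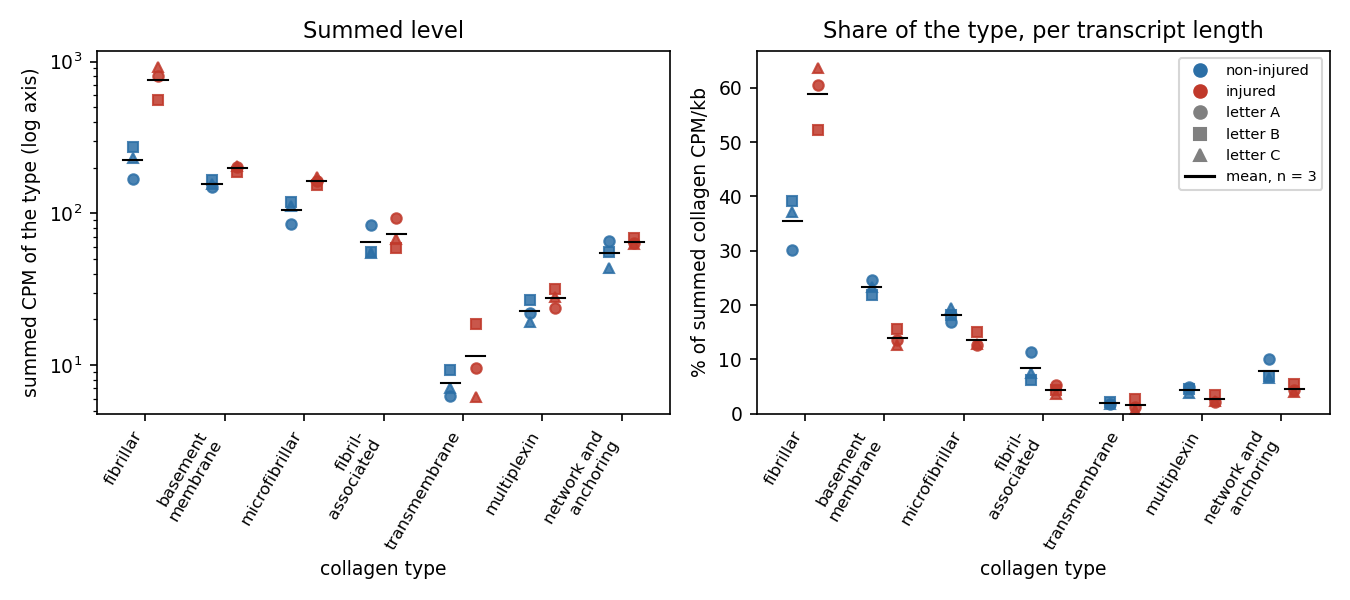
Summed CPM of each collagen type on a log axis (left) and its percentage of the summed collagen CPM per kilobase (right) in each library, with blue for non-injured, red for injured, a marker shape for each letter and a line for the mean of 3. The fibrillar share lies between 52.2% and 63.7% in the injured libraries and between 30.1% and 39.1% in the non-injured ones, while the basement membrane sum is 1.26 times as high in the injured libraries.

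Chains that share a trimer or a fibril were compared within each library as ratios of CPM per kb, which are given as values without a test. Col1a1 over Col1a2 was 1.55, 1.57 and 1.60 in injured A, B and C and 0.774, 0.967 and 1.15 in non-injured A, B and C. The injured libraries lay close together and all above the non-injured ones. Col3a1 over Col1a1 went the other way, at 1.16, 1.33 and 1.42 against 1.65, 1.45 and 2.18, without overlap.

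Within type V, Col5a3 over Col5a2 was 0.523, 0.930 and 0.801 in the injured and 1.33, 2.23 and 2.31 in the non-injured libraries, so the ratio was lower in each injured library. The length taken scales all libraries alike, so this group difference does not depend on it. Which of the pair is the more abundant does depend on it. The transcripts have 6625 (Col5a2) and 6119 (Col5a3) bases, but all annotated exons together have 9591 and 6809. Col5a1 over Col5a2 was 0.928, 0.994 and 1.17 against 1.15, 2.12 and 2.63, with a small overlap. The type IV and type VI ratios were close between the groups. Col4a1 over Col4a2 was 1.37 ± 0.0617 against 1.28 ± 0.0344 for injured against non-injured libraries, with the injured libraries above. Col6a3 over Col6a1 was 1.003 ± 0.168 against 1.03 ± 0.0451, with overlap.

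**Figure D4:**
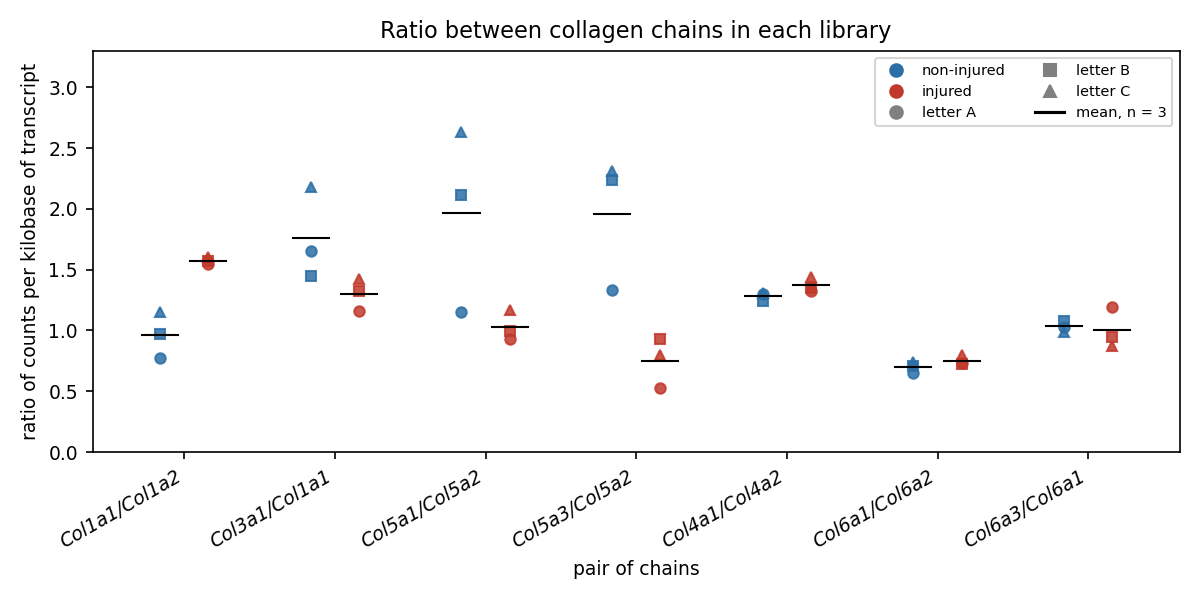
Ratio of CPM per kilobase between chains of a shared trimer or fibril (y) in each library, with blue for non-injured, red for injured, a marker shape for each letter and a line for the mean of 3. Col1a1 over Col1a2 is higher in all injured libraries, Col5a3 over Col5a2 is lower in all of them, and the type IV and type VI ratios differ little between the groups.

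Several chains lie beside a partner in the genome. Col4a1 and Col4a2 are head to head on chromosome 8 and overlap by 22 bases, Col4a4 and Col4a3 lie head to head 71 bases apart on chromosome 1, and Col4a6 and Col4a5 1.31 kb apart on chromosome X. In the first pair both members were higher in every injured library, and in the other pairs the members did not pass the test. Col6a2 and Col6a1 lie on the same strand of chromosome 10, 85.2 kb apart. Overlapping genes in the table share ground with Col1a2, Col5a1, Col5a2, Col4a1, Col4a2, Col4a3, Col18a1 and Col25a1, and without a stated strand setting their shared reads may be split between them.

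A list of 75 other genes of collagen handling, of which 65 could be tested, had 6 that rose and 0 that fell (0.715% and 0.0311% of all genes), and its median log2 fold change was 0.35 against 0.00 over all genes. At an unadjusted p under 0.05, 0 of the list were lower, and 0 were lower with the block or by DESeq2. With the block 15 of the list rose, where 3.21% of all genes rose. Of the 12 genes that trim the propeptides or cross-link the fibrils, 5 rose, with a median log2 fold change of 0.71. Lox, the lysyl oxidase that starts the cross-links, had 48.1, 23.8 and 47.1 CPM in injured A, B and C and 9.69, 7.92 and 11.1 CPM in non-injured A, B and C. It was 4.15-fold higher (adjusted p = 0.00287) and passed without each library in turn.

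The lysyl oxidase relatives Loxl1 (2.03-fold, adjusted p = 0.0446), Loxl2 (2.22-fold, adjusted p = 0.0459) and Loxl3 (3.63-fold, adjusted p = 0.0285) rose too. Adamts14, a protease that removes the amino-terminal propeptide, had 17, 32 and 17 counts in the injured and 1, 4 and 2 counts in the non-injured libraries, a fitted fold of 10.8 (4.33 to 27.0, adjusted p = 0.0267). These 4 were calls near the threshold: Loxl1 passed in 0 of the 6 fits that left out a library, and Loxl2, Loxl3 and Adamts14 in 1 each. Adamts14 had enough counts to be tested only through the injured libraries, where it was high. Its call and fold therefore add no support for a rise of the list. Tgm2, a cross-linking transglutaminase, was 1.35-fold higher and did not pass (adjusted p = 0.205).

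Of the 20 folding and modification genes, 1 rose without the block and 3 with it, and the median log2 fold change was 0.22. The first was Sparc, a collagen-binding matrix protein, with 126, 77.8 and 114 CPM in the injured and 56.4, 50.1 and 58.5 CPM in the non-injured libraries (1.93-fold, adjusted p = 0.0310, kept in 2 of the 6 fits that left out a library). Mia3, which loads procollagen for export, had a fold of 0.934 (adjusted p = 0.776). P4hb, a subunit of prolyl hydroxylase, had a fold of 1.04 (adjusted p = 0.903). The other two that passed with the block are named here after their values were seen. Serpinh1, the collagen chaperone HSP47, was 1.70-fold higher (adjusted p = 0.0584, and 0.00377 with the block), and DESeq2 (0.0371) and upper quartile scaling also called it. Fkbp10, a prolyl isomerase that acts on procollagen, was 3.05-fold higher (adjusted p = 0.0890, and 0.0337 with the block). Its non-injured counts were 8, 14 and 10, so it had enough counts to be tested only with the injured libraries.

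Of the 11 receptors and uptake genes, 0 rose without the block and 2 with it. Itgb1, the beta subunit of the collagen-binding integrins, was 1.41-fold higher (adjusted p = 0.128, and 0.0118 with the block). The other was Itga1, named here after its value was seen, which was 1.50-fold higher without overlap (adjusted p = 0.220, and 0.0479 with the block). Ddr2, a receptor kinase for fibrillar collagen, was 1.28-fold higher and passed in neither fit (adjusted p = 0.417, and 0.158 with the block). Of 9 genes for breakdown and its inhibitors, 0 rose without the block and 1 with it. That was Mmp14, a membrane-bound collagenase named here after its value was seen, which was 2.33-fold higher without overlap (adjusted p = 0.0540, and 0.00980 with the block) and which DESeq2 (0.0453) and upper quartile scaling also called. The inhibitors Timp3 (0.875-fold, adjusted p = 0.536) and Timp2 (1.17-fold, adjusted p = 0.520) did not pass. Of 13 ligands and transcription factors, 0 rose without the block and 3 with it. Positive log2 fold changes numbered 9, and the median was 0.10. Those 3 were Ccn2, Scx and Tgfbr2, named here after their values were seen. Ccn2 was 1.90-fold higher (adjusted p = 0.0772, and 0.0198 with the block). Scx was 1.86-fold higher (0.105 and 0.0455) and Tgfbr2 1.37-fold (0.318 and 0.0475). Tgfb1, also named after its value was seen, was 2.12-fold higher without overlap and passed in neither fit (0.143 and 0.0727). Smad3, which relays TGF-beta signals, had a fold of 1.07 (adjusted p = 0.823), and the ligand Tgfb2 0.884 (adjusted p = 0.678). Tll2, Mmp3, Mmp8, Mmp13, Mkx and Tcf21 were not analysed here.

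Marker genes of other cell types were read beside the collagen chains. For all the marker counts below, 0.715% of all genes rose and 0.0311% fell without the block, and 3.21% rose and 2.65% fell with it. Of 15 tested markers of fibroblasts and fibro-adipogenic progenitors, 0 rose without the block and 1 with it, 12 had a positive log2 fold change, and the median was 0.13. Their sum was 598 to 708 CPM in the injured and 688 to 773 CPM in the non-injured libraries, but Gsn, which many cell types express, held most of it (389.8 against 482 CPM on average). Without Gsn, left out after its value was seen, the sum was 259 to 284 CPM in the injured libraries, above the 228 to 241 CPM of the non-injured ones. Of 9 macrophage markers 4 rose (Itgam, Lyz2, C1qb and Mrc1), and 7 with the block, and the sum was 98.1 to 173 CPM against 43.4 to 51.4 CPM, without overlap. Like the collagen chains that rose, the macrophage sum was lowest of the injured group in injured B. This was not particular to macrophages, as the fibroblast, joint surface, tenocyte and muscle fibre sums were also lowest there. The endothelial, Schwann cell, satellite cell, adipocyte and erythroid sums were not. Of 3 markers of chondrocytes and the joint surface, Prg4, the lubricant of joint surfaces, rose, and the sum was 55.2 to 74.5 CPM against 16.6 to 24.8 CPM. Prg4 itself held most of that sum (58.2 against 15.3 CPM on average). Sox9 and Comp overlapped between the groups and passed in neither fit. Acan did not have enough counts to be tested, but its 10, 12 and 8 counts in injured A, B and C stood above the 2, 3 and 2 in non-injured A, B and C. Matn3, Hapln1 and Cnmd were not analysed here.

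Of 4 tenocyte markers, 0 rose without the block and 3 with it, with a sum of 59.0 to 69.2 CPM against 40.3 to 51.3 CPM; the defining markers Tnmd, Kera and Mkx were not analysed here. Endothelial markers (0 of 7 called, 110.2 to 117 CPM against 97.3 to 109 CPM), pericyte and smooth muscle markers (0 of 8, 2154 to 2566 against 1739 to 2389 CPM, or 321 to 357 against 344 to 368 CPM without Des, which muscle fibres also express), Schwann cell markers (0 of 5, 15.5 to 20.6 against 10.1 to 17.9 CPM) and satellite cell markers (0 of 5, 46.4 to 61.3 against 51.5 to 58.9 CPM) did not pass in either fit. Without Des, Abcc9 held most of the pericyte and smooth muscle sum (194 against 235 CPM on average), so that sum mainly follows 1 gene. Of those 8 markers, 6 had a positive log2 fold change. Of 5 adipocyte markers 0 fell without the block and 3 with it (13.4 to 23.9 against 32.0 to 54.3 CPM). Of 5 erythroid markers 1 rose, and 4 with the block (132 to 324 against 71.4 to 151 CPM). Each marker with a value had counts in at least 1 library. The part of these cells in the collagen differences was not tested.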

How the data were processed

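RNA sequencing of quadriceps gave 6 libraries in 2 groups of 3, by the sample titles. The authors deposited a single gene table of estimated counts, some of them fractional, and no row had a maximum under 10. STAR 2.7.8a, Partek, DESeq2 and the builds mm10 and hg19 are named, per the submitters' processing notes. No counter, strand setting or annotation release was given in the sources used here. Of the members, 3 (Col4a3, Col6a5 and Col6a6) had values over 0.01 counts from a whole number.

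Estimated counts were rounded to whole numbers. The edgeR filter on low counts (filterByExpr) kept 16095 genes and left out 3920. After TMM scaling, counts were tested by a two-sided quasi-likelihood F test (edgeR 4.0.16, limma 3.58.1, R 4.3.3) over all kept genes, with Benjamini-Hochberg adjustment and a threshold of 0.05. The standard error of a log2 fold change was its size over the root of F. The scripts were tested on simulated data. DESeq2 1.42.0, voom, other scalings and filters, the letter block and leaving out libraries were alternatives. Deviations from the group means correlated between same-lettered libraries, at 0.316 (A), 0.208 (B) and 0.113 (C) over 16095 genes. Between libraries of different letters the correlations ran from -0.232 to 0.0643. Deviations within a group cancel out, so these values depend on each other and do not show that the letters mark pairs. Blocked values are given beside the results whose call they change. The reported fit has no block, as the labels do not give the meaning of the letters.

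Library values are given for each member past the threshold, the 2 members with the highest counts in each type and the chains that share a trimer with these. A few further members, such as Col27a1, Col14a1, Col16a1, Col24a1 and Col26a1, were added after their values were seen. Of the pathway list, each gene past the threshold and the 2 with the highest counts in each role are named. Other pathway genes, such as Serpinh1, Mmp14, Itga1, Ccn2 and Tgfb1, were added after their values were seen. Members and lists were chosen with earlier results of these data known.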

Additional observations from a re-analysis of the deposited data

How the results depend on the processing

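The 5 chains that rose were called under each scaling, filter and tool tried: DESeq2 called 6 chains, voom 5, median-ratio scaling 5, upper quartile scaling 6, no filter 5, a mean of at least 50 counts 5, and the fit without both letter A libraries 6. The scalings moved the median log2 fold change of all genes by at most 0.05. With the replicate block 14 chains were higher and 1 lower, and without 1 library in turn 3 to 6 were higher, 3 without non-injured C. Over all genes, 115 were higher and 5 lower as reported. The higher count was 183 by DESeq2, 53 by voom, 516 with the block and 20 to 104 without 1 library in turn. The lower count was 79 by DESeq2, 17 with no filter, 3 at a mean of at least 50 counts, 427 with the block, 132 without both letter A libraries and 0 to 25 without 1 library in turn. Pathway genes higher in injured numbered 6 as reported, 2 by voom, 15 with the block and 1 to 4 without 1 library in turn. Near-zero log2 fold changes changed sign when 1 library was left out: Col23a1 ran from -0.58 to 0.63, Col7a1 from -0.12 to 0.25, P4hb from -0.033 to 0.176 and Smad3 from -0.081 to 0.215. The cause was not tested. With 3 libraries a group an exact permutation test of 1 gene cannot go below 0.10, and members under 50 counts had wide intervals.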
